A study of Mus musculus with 2 samples.

Results

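A set of 9 genes that mark resting microglia was followed through 2 single-cell RNA libraries: P2ry12, P2ry13, Gpr34, Tmem119, Fcrls, Slc2a5, Olfml3, Sparc and Sall1. They were chosen by symbol, as 9 of the 32285 genes counted in both libraries, and each symbol named 1 gene. 1 library came from WT mice and the other from Stat4fl/flCD11cCre mice, both C57BL/6 and both 15 days after immunization for experimental autoimmune encephalomyelitis (EAE) with MOG peptide in complete Freund's adjuvant (CFA) and PTX. In Stat4fl/flCD11cCre mice, Cre recombinase under the CD11c promoter acts on a floxed Stat4, so deletion is limited to cells in which that promoter has been active, and the labels do not say which exons are flanked. Mononuclear cells of the central nervous system (CNS) were isolated on Percoll and sorted for surface MHC class II and CD11c, and animals were pooled within each genotype. Each genotype is therefore 1 library. No test between genotypes was possible, and every interval given is a 95% counting interval that covers counting error only.

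Microglia are the resident macrophages of the CNS. At rest they carry a gene programme that depends on TGF-beta and on the transcription factors PU.1 and SALL1, and that separates them from macrophages that enter from the blood. In inflamed tissue much of that programme is known to be lowered while antigen presentation genes, among them the MHC class II genes, are raised. P2RY12 and P2RY13 are purinergic receptors for ADP, P2RY12 steering microglial processes towards injury, and GPR34 is a receptor for lysophosphatidylserine. TMEM119 is a membrane protein and FCRLS an Fc receptor-like molecule. SLC2A5 is a fructose transporter. OLFML3 and SPARC are secreted, SPARC being a matrix-associated protein that stromal cells also make. SALL1 is a zinc-finger transcription factor that holds microglial identity.

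In the GENCODE annotation of GRCm38, the build that mm10 names, 4 of the genes lie on chromosome 3. P2ry12 (ENSMUSG00000036353, chr3:59216272-59262871, minus strand) and P2ry13 (ENSMUSG00000036362, chr3:59207892-59210882, minus strand) are neighbours with 5389 bases between them, and both lie inside Med12l on the opposite strand. Fcrls (ENSMUSG00000015852) is at chr3:87250758-87263738 and Olfml3 (ENSMUSG00000027848) at chr3:103722222-103738001, both on the minus strand. Gpr34 (ENSMUSG00000040229, chrX:13632089-13640858, plus strand) lies inside Cask on the opposite strand. Tmem119 (ENSMUSG00000054675) is at chr5:113793729-113800516, Slc2a5 (ENSMUSG00000028976) at chr4:150119283-150144169, Sparc (ENSMUSG00000018593) at chr11:55394500-55423183 and Sall1 (ENSMUSG00000031665) at chr8:89027235-89044162. Whether strand was used in the authors' counting is not given in the sources used here, so a part of Med12l or Cask reads in the P2ry12, P2ry13 and Gpr34 values cannot be told apart from the genes' own.

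The promoters of 3 genes are shown because these genes stand at different ends of the response described here: P2ry12 and P2ry13 were lower in cells with MHC class II, and Olfml3 differed little. The sequences are RefSeq's for GRCm38.p6, written 5′ to 3′ on the gene's strand and ending at the base before the gene's start, except for P2ry12. Its window lies in an exon of Med12l, so that only the stretch around its match is shown. Capitals mark GAGGAA or GGAAGT, core letters of sites bound by PU.1 and other ETS factors. These letters were chosen after the sequences had been seen.
P2ry12 (chr3:59263021-59263046, minus strand): ctaacaagaaGGAAGTtccccagtga
P2ry13 (chr3:59210883-59211132, minus strand): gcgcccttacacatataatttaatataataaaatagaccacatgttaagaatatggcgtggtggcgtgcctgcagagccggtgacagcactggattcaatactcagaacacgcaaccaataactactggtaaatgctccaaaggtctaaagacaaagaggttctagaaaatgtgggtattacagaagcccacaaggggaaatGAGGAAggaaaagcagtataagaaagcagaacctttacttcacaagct
Olfml3 (chr3:103738002-103738251, minus strand): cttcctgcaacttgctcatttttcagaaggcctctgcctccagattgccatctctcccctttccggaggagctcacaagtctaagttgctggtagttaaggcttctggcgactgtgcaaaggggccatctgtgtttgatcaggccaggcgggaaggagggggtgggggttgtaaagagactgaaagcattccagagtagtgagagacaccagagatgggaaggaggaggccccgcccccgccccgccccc
GGAAGT begins 51 bases before the start RefSeq gives for P2ry12, which lies upstream of the GENCODE start printed above, and GAGGAA begins 48 bases before that of P2ry13, where both annotations share the start. Both were sought on both strands of the 250 bases before each start, and 7 of the 9 genes had a RefSeq promoter. Fcrls held both, at 144 and 75 bases before its RefSeq start, and there the GENCODE gene begins further upstream, so that both matches lie inside it. Sall1 held GGAAGT in 1 of its 3 entries. The Olfml3, Sparc and Slc2a5 windows held neither. Of all 32851 promoters listed by RefSeq for this build, 23.3% held GAGGAA, 19.7% held GGAAGT and 36.7% held either, so a match is common and describes only these letters.

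After filtering, 13298 of 13820 barcodes remained in WT and 12305 of 12534 in Stat4fl/flCD11cCre, with medians of 6440.5 and 6878 unique molecular identifiers (UMIs, 1 per captured transcript). The libraries shared 42 kept barcodes. Stat4 was counted at 56.9 and 63.9 CPM (a gene's UMIs per 1000000 UMIs of the cells) in conventional DC-like cells of WT and Stat4fl/flCD11cCre, and at 3.24 and 1.81 CPM in microglia-like cells. Reads lie at 3′ ends and may fall outside the deleted part, so this does not check the genotype. Itgax, which encodes CD11c, stood at 26.6 and 11.4 CPM in microglia-like cells. Cells were clustered without the 9 genes and without MHC class II genes, and clusters took their names from other markers. The microglia-like class, named from Cx3cr1, Siglech, Trem2 and others, held 2974 WT cells (22.4%) and 4866 Stat4fl/flCD11cCre cells (39.5%), and the sort gate can set these shares. Cx3cr1 was at 2474 and 3563 CPM in it against 100.04 and 109 CPM in T cell-like cells. Clusters with markers both of microglia and of another class, 2641 and 1649 cells, were kept apart as mixed. Their median was 14699 and 17303 UMIs, against 4334 and 5008 in microglia-like cells, and 35.1% and 56.6% of them were among the 10% of cells with the highest doublet scores, against 0.336% and 0.452% of microglia-like cells.

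All 9 genes were highest in the microglia-like class of both libraries, and none of its intervals reached that of the next named class with 50 or more cells. CPM of a 3′ library has no length term. P2ry12 was counted at 1087 CPM (1071 to 1103) in WT and 2006 CPM (1990 to 2022) in Stat4fl/flCD11cCre. Gpr34 stood at 599.6 and 1338 CPM, and Fcrls, at 607 and 1339 CPM, had nearly the same levels. Of the less abundant receptors and transporters, P2ry13 reached 213 and 365 CPM and Slc2a5 119 and 241 CPM. The next 4 sets of values differed less between libraries. Tmem119 was at 749 and 912 CPM and Sall1 at 228 and 328 CPM. The secreted Olfml3 and Sparc were at 957 and 1177 CPM and at 1696 and 2089 CPM.

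**Figure D1:**
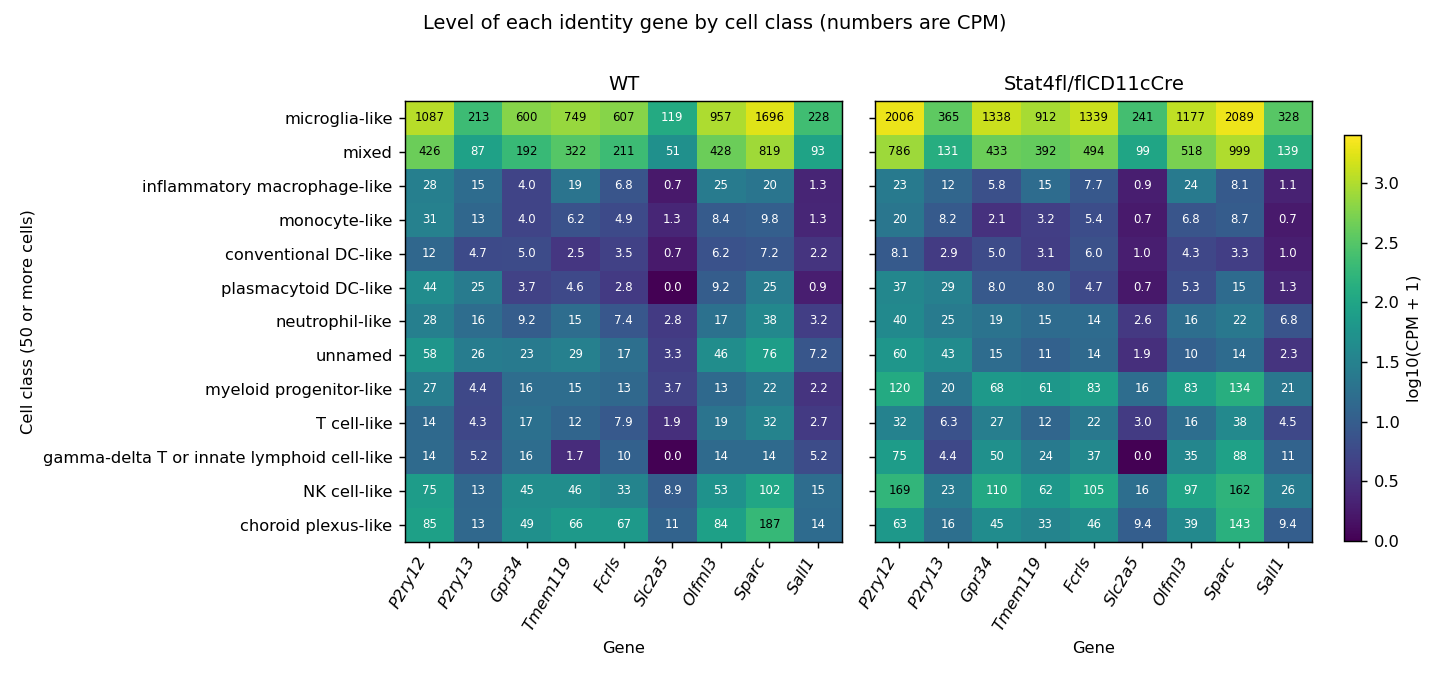
Level of each of the 9 genes (CPM, shown on a log scale) by cell class in the WT and Stat4fl/flCD11cCre libraries. Microglia-like cells stand highest for all 9 genes, with Sparc at 1696 and 2089 CPM.

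Below microglia, the order of classes was not the same in both libraries. For P2ry12, WT choroid plexus-like cells came next (84.8 CPM, 70.8 to 101), NK cell-like cells followed with an overlapping interval (75.5, 65.5 to 86.6), and plasmacytoid DC-like cells stood at 44.2 CPM. In Stat4fl/flCD11cCre the NK cell-like class came next (169 CPM, 154 to 186) and then the myeloid progenitor-like class (120, 113 to 129), whose intervals did not overlap. Choroid plexus-like cells were the second class in WT for Gpr34, Tmem119, Fcrls, Slc2a5, Olfml3 and Sparc too, overlapping NK cell-like cells for Gpr34, Tmem119 and Slc2a5. NK cell-like cells were second in Stat4fl/flCD11cCre for the same 6 genes, overlapping the third class for Tmem119, Slc2a5, Olfml3 and Sparc. They were second in both libraries for Sall1, again with overlap. P2ry13 alone had plasmacytoid DC-like cells in second place in both libraries, at 24.9 and 29.2 CPM, and these overlapped neutrophil-like cells at 15.6 and 25.3 CPM.

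These lower levels came from few cells in some classes and from many in others. Of NK cell-like cells, 28 of 443 in WT (6.32%) and 35 of 348 in Stat4fl/flCD11cCre (10.1%) had 5 or more UMIs of the 9 genes, and they held 94.1% and 96.0% of the class's UMIs of these genes. Those cells had median totals of 12216 and 10742 UMIs, against 4183 and 5414 in the other NK cell-like cells. In Stat4fl/flCD11cCre myeloid progenitor-like cells 21.8% of cells held 98.0%. Inflammatory macrophage-like cells were unlike these: 3.78% and 4.21% of cells held only 38.1% and 31.9%. Cells with no UMI of any of the 9 genes made up 81.7% and 79.6% of T cell-like cells, 57.3% and 51.7% of inflammatory macrophage-like cells and 48.5% and 48.4% of choroid plexus-like cells.

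Cells with fewer than 5 such UMIs did not all show the genes in the proportions seen in microglia. The source of these UMIs, free RNA included, was not tested. P2ry13 was over-represented in myeloid classes: its ratio to the other 8 genes was 6.01 and 4.91 times the microglial one in inflammatory macrophage-like cells, 9.81 and 15.2 times in neutrophil-like cells and 11.7 and 16.6 times in plasmacytoid DC-like cells. P2ry12 was over-represented in plasmacytoid DC-like cells (4.64 and 2.17 times) and monocyte-like cells (3.75 and 3.18 times). Gpr34 made up 40.9% and 46.0% of these UMIs in T cell-like cells but 9.59% and 13.7% in microglia-like cells, a ratio to the other genes 6.52 and 5.39 times the microglial one. Cask, which overlaps Gpr34, was counted there at 10.2 and 14.5 CPM, against 17.2 and 27.1 CPM for Gpr34. In monocyte-like cells Cask was at 97.4 and 126 CPM and Gpr34 at 3.99 and 2.06 CPM. A part of Cask reads in the Gpr34 values was not tested. Gpr34 was found in 8.19% and 10.2% of all T cell-like cells and P2ry12 in 3.76% and 4.14%, at median depths of 4993.5 and 6025 UMIs. In microglia-like cells the shares were 80.3% and 95.6% for Gpr34 and 93.2% and 98.5% for P2ry12.

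Sparc was also found in classes of non-immune cells. In choroid plexus-like cells with fewer than 5 UMIs of the 9 genes it supplied 79.2% and 82.6% of them, against 27.1% and 21.3% in microglia-like cells, and 46.2% of all choroid plexus-like cells had a Sparc UMI in each library. The 14 stromal-like cells of Stat4fl/flCD11cCre held 1946 CPM of Sparc, a level like that of microglia, and the 3 of WT held 1610 CPM. At the other end, Slc2a5 was not found in WT plasmacytoid DC-like cells (0 of 152 cells, which allows a share of up to 1.97% of cells with a UMI and sets no limit on cells that express the gene).

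Genes whose levels ran most like these 9 over 26 profiles (13 classes, mixed and unnamed ones included, in each of 2 libraries) were sought among 11987 other genes, by Pearson correlation of log2(CPM + 1). The profiles share libraries, so the values are descriptive. Agmo and Mir99ahg stood nearest to P2ry12 (0.96 each), with Pmp22, Tmc7, Tmcc3 and Nfia at 0.95. Atp8a2, Pmp22, Mir99ahg, Nfia and Nav3 (0.98 each) and Magi1 (0.97) stood nearest to the mean of the 9. In microglia-like cells Agmo was at 332 and 521 CPM and Pmp22 at 130 and 226 CPM.

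Activation was read from the summed UMIs of H2-Aa, H2-Ab1 and H2-Eb1, the chains of MHC class II. A sum of 3 or more was found in 2148 WT microglia-like cells (72.2%, 70.6 to 73.8) and in 802 Stat4fl/flCD11cCre cells (16.5%, 15.4 to 17.6). A sum of 0 was found in 432 and 3154 cells, although all were sorted on surface MHC class II. In T cell-like cells, which do not make MHC class II in mice, 6.27% and 3.83% had 3 or more. With every cell thinned to 2500 UMIs the shares were 66.7% and 11.6% in microglia-like cells and 3.72% and 2.19% in T cell-like cells.

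In cells with 3 or more MHC class II UMIs the 9 genes formed a graded series. Fcrls and Gpr34 were lower by the most, then P2ry12, P2ry13 and Slc2a5, then Sall1, Tmem119 and Olfml3, and Sparc was nearly level. In WT, 5 of 9 genes were 1.5-fold or more lower than in cells with 0, where 8.36% of all 10895 genes measured were that much lower. In Stat4fl/flCD11cCre the count was 6 of 9, against 8.09% of 11575 genes. None of the 9 was 1.5-fold or more higher, against 9.59% and 8.55% of all genes. The median log2 ratio over the 9 was -0.80 in WT and -0.88 in Stat4fl/flCD11cCre, and over all genes -0.09 and -0.11.

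Fcrls was counted at 1384 CPM in WT cells with 0 and 454 CPM in those with 3 or more, a log2 ratio of -1.61 (-1.68 to -1.54). In Stat4fl/flCD11cCre it went from 1569 to 796 CPM (log2 ratio -0.98, -1.02 to -0.94). Those intervals do not meet, so the Fcrls difference was larger in WT by more than counting error, with 1 library of each. The cells with 3 or more were not alike in MHC class II level. Among those with 30 or more UMIs the median was 7627 CPM in WT and 5966.5 CPM in Stat4fl/flCD11cCre. Gpr34 was the gene with the lowest ratio in Stat4fl/flCD11cCre, at 1609 and 712 CPM (-1.18, -1.22 to -1.13), and its WT values of 1091 and 505 CPM gave nearly the same ratio (-1.11, -1.19 to -1.04).

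P2ry12, the ADP receptor, was at 1686 and 966 CPM in WT (log2 ratio -0.80, -0.86 to -0.74) and at 2313 and 1257 CPM in Stat4fl/flCD11cCre (-0.88, -0.91 to -0.85). Its neighbour P2ry13 was at 342 and 190.3 CPM in WT (-0.84) and at 429 and 225 CPM in Stat4fl/flCD11cCre (-0.93). The fructose transporter gene Slc2a5 was at 196 and 103 CPM (-0.93) and at 283 and 145 CPM (-0.96). For these 3 genes the intervals of both libraries overlapped.

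Sall1 was at 285 and 218 CPM in WT (log2 ratio -0.39, -0.53 to -0.24) and at 368 and 227 CPM in Stat4fl/flCD11cCre (-0.70, -0.78 to -0.62), so that it passed 1.5-fold in the second library only. The ratios differed between libraries beyond their counting intervals. Tmem119 was at 966 and 702 CPM in WT and at 989 and 718 CPM in Stat4fl/flCD11cCre, with a log2 ratio of -0.46 in both. Olfml3 was at 1132 and 928 CPM (-0.29, -0.36 to -0.22) and at 1219 and 1062 CPM (-0.20, -0.24 to -0.16). Sparc, at 1734 and 1693 CPM in WT, had an interval that included 0 (-0.03, -0.09 to 0.02). In Stat4fl/flCD11cCre Sparc was at 2139 and 1964 CPM (-0.12, -0.15 to -0.10), about as far from 0 as the median of all genes.

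**Figure D2:**
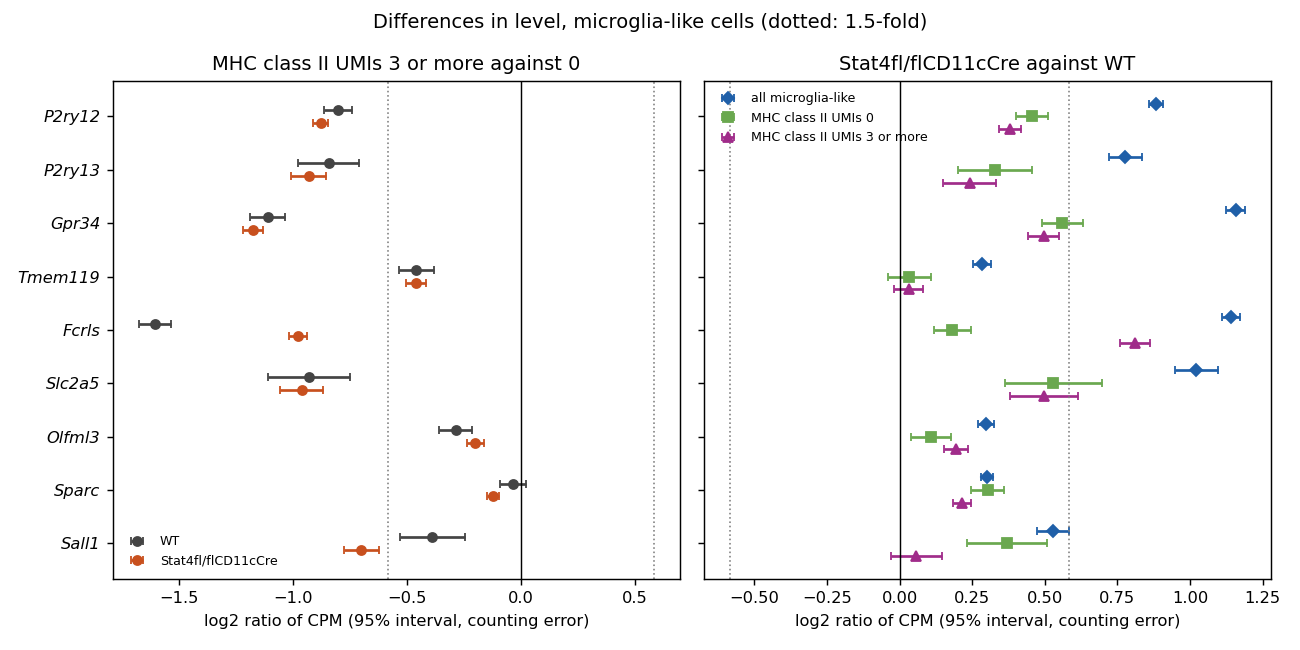
Log2 ratio of each gene, MHC class II sum of 3 or more against 0 and Stat4fl/flCD11cCre against WT, in microglia-like cells, with 95% counting intervals as lines. Fcrls (-1.61 in WT) and Gpr34 (-1.18 in Stat4fl/flCD11cCre) lie lowest in the MHC class II comparison and Sparc nearest 0.

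With the MHC class II sum divided into 5 ranges (0, 1 to 2, 3 to 9, 10 to 29, and 30 or more UMIs), the differences were spread over several ranges. Levels summed over cells cannot tell a graded change within cells from a changing mix of cells. Of T cell-like cells, 29.6% in WT and 19.6% in Stat4fl/flCD11cCre had 1 to 2, so that range can hold cells without MHC class II. Fcrls in WT stood at 1384, 1052, 756, 523 and 283 CPM, and in Stat4fl/flCD11cCre at 1569, 1385, 981, 727 and 672 CPM. P2ry12 stood at 1686, 1453, 1277, 1064 and 771 CPM in WT and at 2313, 2100, 1448, 1225 and 1099 CPM in Stat4fl/flCD11cCre. Sparc stood at 1734, 1686, 1675, 1733 and 1672 CPM in WT, with no order. The level of Fcrls, P2ry12, P2ry13, Gpr34 and Tmem119 was lower in each range than in the one before, in both libraries.

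The ranges also place the libraries side by side at like MHC class II UMI sums, though not at like levels. Stat4fl/flCD11cCre cells were deeper, and at 30 or more UMIs their median MHC class II was 5966.5 CPM, against 7627 CPM in WT. At 30 or more UMIs Fcrls was 283 CPM in WT and 672 CPM in Stat4fl/flCD11cCre, and Tmem119 608 and 632 CPM. After thinning, Fcrls was found in 87.5% of WT cells with 0 and 34.0% of those with 30 or more, and in Stat4fl/flCD11cCre in 92.6% and 54.3%. Sparc was found in 96.2% and 95.3% in WT and in 98.5% and 96.3% in Stat4fl/flCD11cCre.

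**Figure D3:**
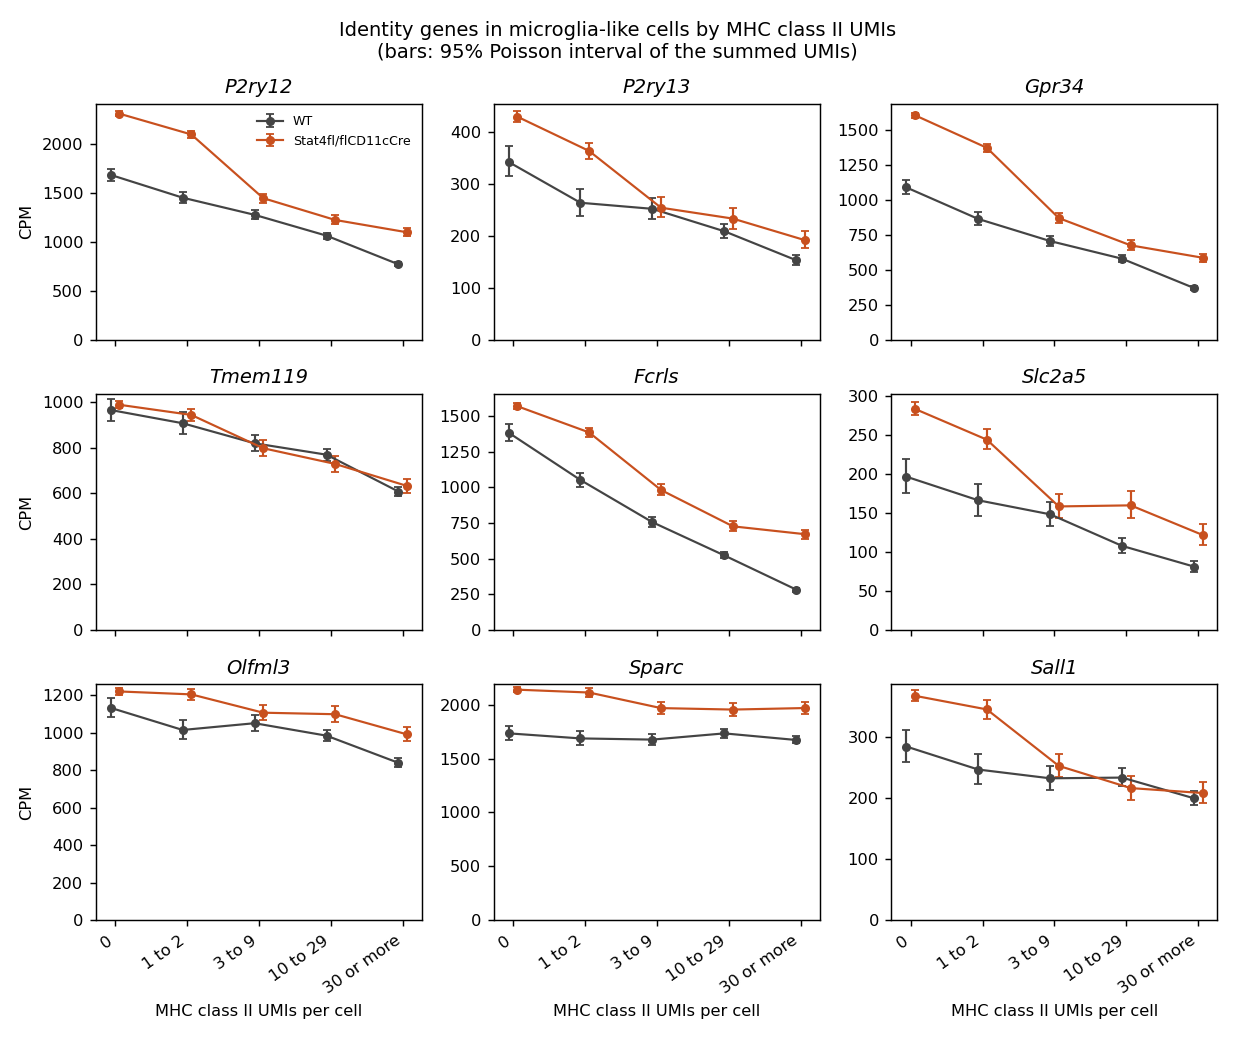
Level of each gene (CPM) in microglia-like cells by range of the MHC class II UMI sum, for WT and Stat4fl/flCD11cCre, with 95% Poisson intervals. Fcrls goes from 1384 to 283 CPM in WT and from 1569 to 672 CPM in Stat4fl/flCD11cCre, while Sparc stays between 1672 and 1734 CPM in WT.

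Lower levels left most cells with several of the genes. At 2500 UMIs a WT microglia-like cell with 0 MHC class II UMIs showed a mean of 6.68 of the 9 genes (343 cells) and one with 3 or more a mean of 5.57 (1982 cells). In Stat4fl/flCD11cCre the means were 7.31 (2969 cells) and 6.03 (783 cells). Cells with 6 or more of the 9 made up 82.2% and 53.6% in WT and 93.8% and 64.6% in Stat4fl/flCD11cCre. Over all thinned microglia-like cells, none of the genes was found in 0 of 2645 in WT and in 0.108% of 4626 in Stat4fl/flCD11cCre.

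**Figure D4:**
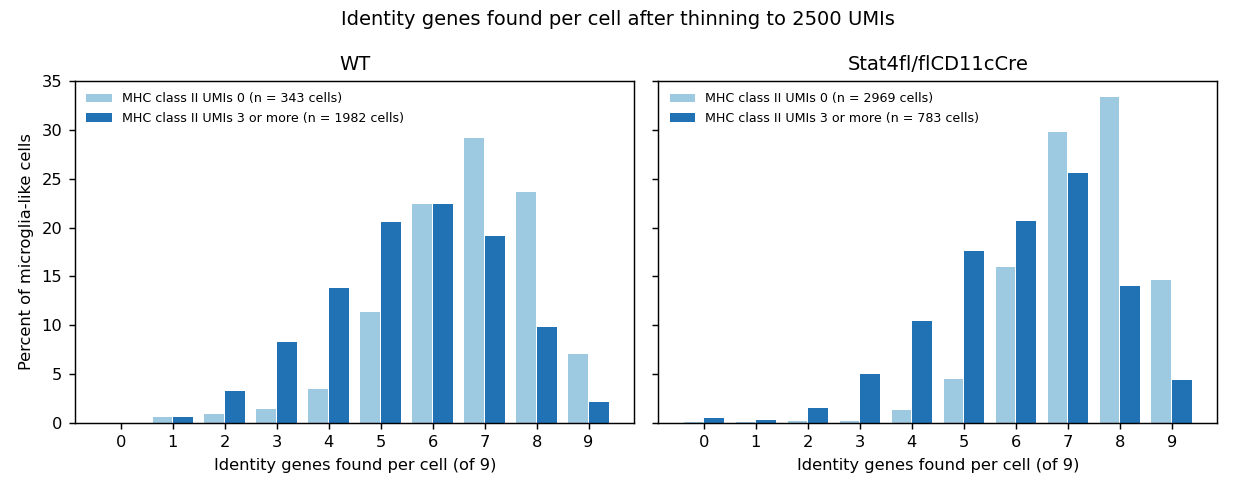
Share of microglia-like cells (percent) by the number of the 9 genes found after thinning to 2500 UMIs, by library and MHC class II sum. Cells with 3 or more MHC class II UMIs lie to the left of those with 0, with means of 5.57 against 6.68 in WT and 6.03 against 7.31 in Stat4fl/flCD11cCre.

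Several other measures differed between the same cells. Median totals were 3516.5 UMIs in WT cells with 0 and 4834 in those with 3 or more, and 4687.5 and 7170.5 in Stat4fl/flCD11cCre. Mitochondrial UMIs were 1.58% and 1.96% in WT and 1.15% and 1.66% in Stat4fl/flCD11cCre, and ribosomal protein UMIs 8.62% and 11.4%, and 7.28% and 10.1%. Markers of inflammatory macrophages summed to 46.2 and 81.5 CPM in WT and 15.9 and 106 CPM in Stat4fl/flCD11cCre. Of these, 3 of 4 and 4 of 4 measured markers were 1.5-fold or more higher. None of the 6 was at 0 over both sets of cells together, though Slc7a2 and Nos2 were in WT cells with 0. Neutrophil markers summed to 105 and 348 CPM and to 109 and 690.5 CPM, with 3 of 4 and 3 of 5 measured markers higher. None of the 7 was at 0 over both sets together, though Ly6g was in WT cells with 0. Monocyte markers summed to 66.5 and 103 CPM and to 38.1 and 94.6 CPM, with 2 of 4 and 4 of 4 higher. None of the 7 was at 0 over both sets together, though Ace and Treml4 were in WT cells with 0. Border macrophage markers summed to 16.0 and 20.01 CPM and to 11.9 and 20.4 CPM, with 2 of 7 at 0 in both sets. Of 3 measured, 1 in WT and 2 in Stat4fl/flCD11cCre were higher, and 1 was lower in Stat4fl/flCD11cCre. Of all genes, 9.59% in WT and 8.55% in Stat4fl/flCD11cCre were 1.5-fold or more higher. Lists of other lineages went both ways. Conventional DC markers, mostly Fscn1, summed to 143 and 66.8 CPM and to 193 and 108 CPM. T cell markers summed to 16.6 and 14.6 CPM and to 6.63 and 5.18 CPM, and stromal markers to 10.5 and 14.3 CPM and to 4.64 and 15.1 CPM. The part of all these markers in the lower levels was not tested.

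The genes were also expressed per 100 Sparc UMIs. Sparc was taken as the base after it had been seen to be nearly level, so these values largely repeat the CPM differences and are no separate evidence. P2ry12 went from 97.3 to 57.1 in WT and from 108 to 64.0 in Stat4fl/flCD11cCre, from cells with 0 to cells with 3 or more. Fcrls went from 79.8 to 26.8 and from 73.4 to 40.5, and Gpr34 from 62.9 to 29.8 and from 75.2 to 36.3. Olfml3 differed least, at 65.3 and 54.8 in WT and 57.0 and 54.1 in Stat4fl/flCD11cCre.

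Per 100 Sparc UMIs, the mixed clusters with 3 or more MHC class II UMIs held 51.2 of P2ry12, 24.99 of Fcrls and 22.99 of Gpr34 in WT, and 74.8, 47.0 and 40.7 in Stat4fl/flCD11cCre. With these clusters added to the microglia-like cells, an alternative chosen after seeing the data, all 9 genes were 1.5-fold or more lower in both libraries. Sparc then had log2 ratios of -0.62 and -0.77 and Olfml3 -0.93 and -0.87, so that their near level values in CPM hold for the microglia-like cells without those clusters.

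**Figure D5:**
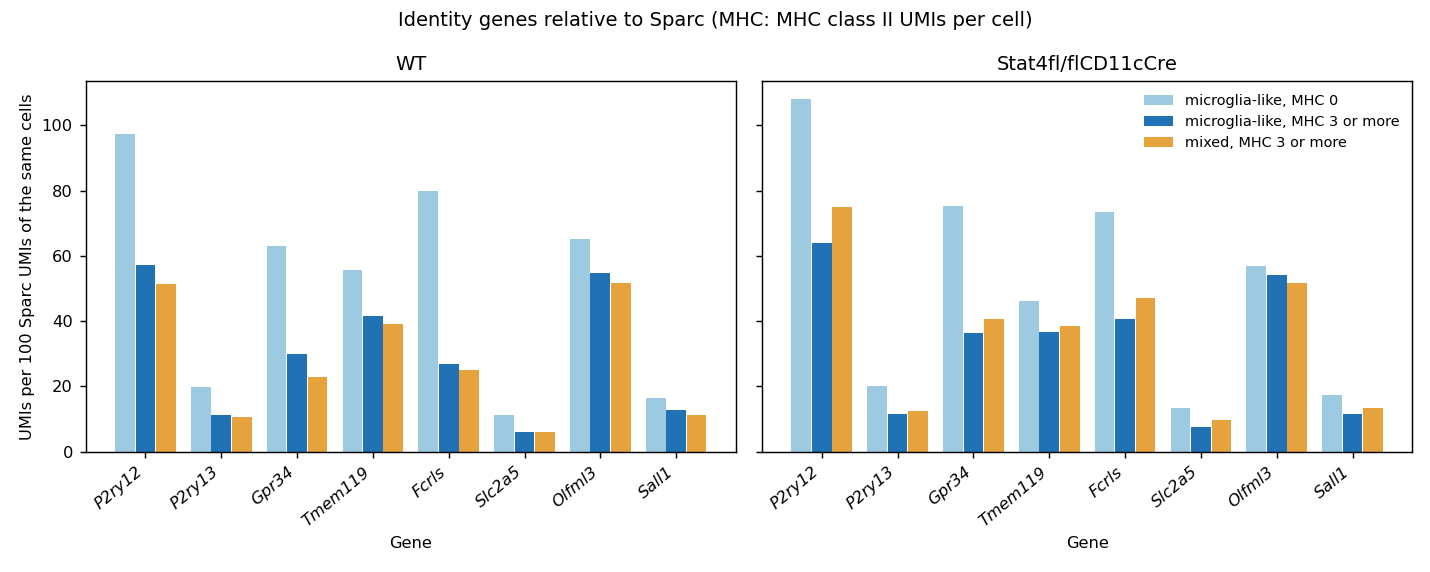
UMIs of each gene per 100 Sparc UMIs in microglia-like cells with MHC class II sums of 0 and of 3 or more and in mixed clusters with 3 or more, by library. In WT, Fcrls stands at 79.8, 26.8 and 24.99, and Olfml3 at 65.3, 54.8 and 51.8.

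Within the microglia-like class, 1 cluster was led by Cd36, Cst7 and Ccl12 (1045 WT and 310 Stat4fl/flCD11cCre cells). It had the lowest P2ry12, P2ry13, Gpr34, Tmem119, Fcrls, Slc2a5 and Sall1 in each library. Its intervals for P2ry13, Gpr34, Tmem119 and Sall1 overlapped those of another cluster in WT, Stat4fl/flCD11cCre or both. It held P2ry12 at 604 and 625 CPM, Gpr34 at 316 and 342.5 CPM and Fcrls at 294 and 531 CPM, with Sparc at 1702 and 1852 CPM. MHC class II summed to 5704 and 3590 CPM in it. The cluster led by Adamts16, Dlc1 and Csmd3 (165 and 1105 cells) held P2ry12 at 2005 and 2465 CPM and Fcrls at 1118 and 1426 CPM, with MHC class II at 1121 and 179 CPM. A cluster of cycling cells (139 and 81 cells) held Gpr34 at 355 and 513 CPM beside Sparc at 1670.3 and 1773 CPM.

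Between 3 and 7 of the 9 genes were also 1.5-fold or more lower along other axes of microglial state. On each, the 25% of cells with the highest UMI share of a gene list was set against the 25% with the lowest, within a library. Genes that respond to interferon-gamma gave 5 of 9 members 1.5-fold or more lower in WT, where 8.7% of all genes were, and 6 in Stat4fl/flCD11cCre (6.61%). For genes that respond to type I interferon the counts were 5 (6.97%) and 3 (4.38%). For genes of disease-associated microglia, such as Apoe, Lpl and Cst7, they were 7 (17.2%) and 4 (8.33%), with all-gene medians of -0.23 and -0.14.

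With the same cut made on MHC class II, Tmem119 was at a log2 ratio of -0.52 in WT and -0.35 in Stat4fl/flCD11cCre. On the axis of disease-associated microglia it was at -0.80 in WT and -0.35 in Stat4fl/flCD11cCre. Slc2a5 was at -1.46 and -0.90 there, and Sparc at -0.06 (-0.11 to -0.01) and 0.01 (-0.02 to 0.05). MHC class II differed along these axes too: in WT it summed to 5270.4 CPM in the cells highest in interferon-gamma response genes and 2287 CPM in those lowest. Its part in the lower levels was not tested.

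Cells in which 3 or more proliferation genes were found were set against cells with none. In WT, MHC class II was at 3805 CPM in the first (222 cells) and 3844 CPM in the second (2358 cells), and 5 of the 9 genes were 1.5-fold or more lower in the first, against 11.4% of all genes. In Stat4fl/flCD11cCre 7 were lower, against 17.7% of all genes, and MHC class II was at 1442 and 611 CPM. Gpr34 had log2 ratios of -1.18 and -1.46 here, while Olfml3 in WT was at 0.03 (-0.04 to 0.10). Median totals of the cycling and other cells were 8242.5 and 4060.5 UMIs in WT.

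Over all microglia-like cells, the 9 genes were higher in Stat4fl/flCD11cCre than in WT, 5 of them by 1.5-fold or more, against 7.12% of 12768 genes. The median log2 ratio was 0.78, against 0.09 over all genes. Gpr34 (1.16, 1.13 to 1.19) and Fcrls (1.14, 1.11 to 1.17) differed most. Slc2a5 (1.02), P2ry12 (0.88) and P2ry13 (0.78) followed, and Sall1 was at 0.53. Sparc (0.30), Olfml3 (0.30) and Tmem119 (0.28) differed least, and these 3 were also among the 4 that differed least with MHC class II in WT.

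The libraries differed in the share of cells with MHC class II, so the genotypes were also compared at like sums. Like sums are not like levels, since Stat4fl/flCD11cCre cells were deeper and their median MHC class II CPM was lower in every range above 0. Among cells with 0, no gene was 1.5-fold or more higher (7.67% of all genes were), and the ratios ran from 0.56 for Gpr34 and 0.53 for Slc2a5 down to 0.18 for Fcrls and 0.03 for Tmem119 (-0.04 to 0.11). Among cells with 3 or more, Fcrls alone passed 1.5-fold (0.81, 0.76 to 0.86), where 2.42% of all genes did. Slc2a5 and Gpr34 were at 0.50, P2ry12 at 0.38, and Sall1 (0.06, -0.03 to 0.15) and Tmem119 (0.03, -0.02 to 0.08) had intervals that included 0. This count depended on the cells used: 4 genes passed with the mixed clusters added, and 0 after thinning.

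With the WT cells weighted to the MHC class II ranges of Stat4fl/flCD11cCre, the log2 ratios were 0.55 for Gpr34, 0.51 for Slc2a5, 0.44 for P2ry12 and 0.28 for Fcrls. Fcrls and Gpr34 therefore stood at similar ratios over all cells, but Fcrls was reduced to 0.28 by the weighting and Gpr34 to 0.55. The weighting evens out the ranges, not the MHC class II levels within them. Genotype, pool and library cannot be told apart here.

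Of 20 other genes of the resting microglial programme, 5 were 1.5-fold or more lower with MHC class II in WT (median -0.43) and 6 in Stat4fl/flCD11cCre (median -0.39), beside 8.36% and 8.09% of all genes, and 0 were higher. Ecscr was at -1.17 and -1.07, Cst3, which encodes cystatin C, at -0.73 and -0.80, Adgrg1 at -0.81 in WT and Upk1b at -1.06 in Stat4fl/flCD11cCre. Of 17 measured genes of TGF-beta signalling and microglial transcription, 1 in WT and 2 in Stat4fl/flCD11cCre were that much lower (medians -0.23 and -0.19), a share near the 8.36% and 8.09% of all genes. The genes counted were Maf, a transcription factor (-0.86 and -0.93), and in Stat4fl/flCD11cCre Tgfbr1, a TGF-beta receptor chain (-0.67).

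Among 6 measured purinergic genes, 0 were lower by 1.5-fold, 1 in WT and 2 in Stat4fl/flCD11cCre were higher, and the medians were -0.09 and -0.12. Of all genes 8.36% and 8.09% were that much lower and 9.59% and 8.55% higher, and with 6 genes these counts say nothing of the list. P2ry14, which encodes a receptor for UDP-glucose, was at 3.08 CPM in WT cells with 0 and 26.5 CPM in those with 3 or more (log2 ratio 3.10, 1.87 to 4.74). In Stat4fl/flCD11cCre it was at 1.33 and 13.3 CPM (3.32, 2.65 to 4.06). P2ry14 (chr3:59113855-59153618, minus strand) lies inside Med12l as P2ry12 and P2ry13 do, and stood higher in the cells in which those genes stood lower. P2rx4, an ATP-gated channel, was at 0.51 and 0.66, and Entpd1, the ectonucleotidase CD39, at -0.34 and -0.39.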

How the data were processed

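Single-cell 3′ RNA libraries (10x Genomics) were made from 1 pool of sorted cells per genotype, per the labels' protocols. Raw UMI counts per gene and barcode were deposited, and the file headers name Cell Ranger 7.0.0 as their source. Roles are not stated for mm10, bcl2fastq, STAR, Seurat and R 4.3.0, which the submitters' processing notes list. Neither the annotation release nor the treatment of intronic reads, nor any earlier doublet removal, is given in the sources used here. The 5 antibody tags in the matrices were left out of gene totals.

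Barcodes with 500 or more genes, 1000 or more gene UMIs and under 10% mitochondrial UMIs were kept. Both libraries were clustered together on a shared-neighbour graph (2000 variable genes, 30 principal components, 15 neighbours, Leiden resolution 1, leidenalg 0.10.2). The 9 genes, MHC class II, Stat4, mitochondrial, ribosomal, haemoglobin, antigen receptor and sex-linked genes were left out of the variable genes. Clusters took names from marker lists. A cluster stayed unnamed with under 3 detected markers, and was called mixed where it held markers of another class beside microglial marker RNA. Some results are not reported here. Doublets were not removed. Removing the 10% of cells with the highest Scrublet score (computed in scanpy 1.11.5) was an alternative.

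CPM were computed from UMIs summed over the cells of a class in 1 library, with exact Poisson intervals. Ratios carry exact conditional binomial intervals and shares exact Clopper-Pearson intervals, all at 95%. Genes with 50 or more UMIs over both sets of cells were measured for the background, and all 9 genes passed. The ratio step recovered known folds on counts simulated with counting error only, as the intervals assume. That check does not cover spread between cells, pools or libraries. All 9 genes are named. From each other list up to 4 genes per comparison are named, those with 100 or more UMIs and the interval bound farthest from no difference, and for P2ry12 and the mean of the 9 the 6 most correlated genes with 500 or more UMIs. The members and lists were chosen with earlier results of these data known. Python 3.11.15, numpy 2.4.6, scipy 1.17.1, pandas 2.3.3 and matplotlib 3.10.9 were used.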

Additional observations from a re-analysis of the deposited data

How the results depend on the processing

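No paired analysis was possible because each group has 1 library. Each value was recomputed with other clustering, gates, filters, totals, MHC class II thresholds and thinning. Of 585 recomputed values of single genes 378 moved by no more than their interval, 207 moved further. None that was past 1.5-fold changed sign. Of the smaller values, Tmem119 between genotypes kept its sign in 7 of 13 settings among cells with 3 or more (-0.08 to 0.15) and in 12 among cells with 0, Sall1 between genotypes among cells with 3 or more in 11, and Sparc with MHC class II in WT in 10 (-0.62 to 0.05). Of 85 counts and shares 60 stayed close, 25 moved. Members 1.5-fold or more lower with MHC class II numbered 4 to 9 in WT (5 as reported) and 6 to 9 in Stat4fl/flCD11cCre (6 as reported). The 9 came from adding the mixed clusters, an alternative chosen after seeing the data, as was not counting Fscn1 among markers of other lineages.

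The share of WT cells with 3 or more MHC class II UMIs (72.2%) was 53.3% with 10 or more in its place, 66.7% after thinning, 70.2% without cells with 2 or more UMIs of other lineages and 68.7% where Fscn1 was not counted among these. It was 74.8% at resolution 2, 68.9% with a marker gate in place of clusters and 82.8% with mixed clusters added. In Stat4fl/flCD11cCre (16.5%) the same settings gave 9.95%, 11.6%, 15.0%, 13.02%, 19.8%, 13.3% and 31.4%. Genes 1.5-fold or more higher in Stat4fl/flCD11cCre among cells with 0 (0 as reported) numbered 2 after thinning, 1 without cells with other-lineage UMIs and 1 with mixed clusters added. Among cells with 3 or more (1 as reported) they numbered 2 with 10 or more in its place, 0 after thinning, 0 without cells with other-lineage UMIs, 0 where Fscn1 was not counted, 2 at resolution 2, 0 with the marker gate and 4 with mixed clusters added. The cause was not tested.

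With 1 library per genotype the spread between animals is unknown. Deep cells cross the threshold of 3 UMIs more easily, which the thinned shares address in part.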

Other observations

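Antibody tags were counted in the same cells. CD317, the surface protein BST2, had a median of 17 tag UMIs in WT microglia-like cells with 0 MHC class II UMIs and 32 in those with 3 or more. In Stat4fl/flCD11cCre the medians were 25 and 42, and T cell-like cells had 13 in WT and 21 in Stat4fl/flCD11cCre. Other tags were higher too: CD11b at 273.5 and 322, and at 358 and 436.5, and CD172a at 93 and 101, and at 176.5 and 184.5. XCR1 was at 13 and 15, and at 29 and 33, against 11 and 25 in T cell-like cells. In T cell-like cells CD11b was at 31 and 23 and CD172a at 40 and 95. Tag UMIs were not scaled to depth, and cells with 3 or more had higher totals of gene UMIs. MERTK, a phagocytic receptor, was at 31 and 30, and at 61 and 62, against 12 and 33 in T cell-like cells.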
